A study of Mus musculus with 9 samples.

Results

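Interferon-induced genes are genes that cells switch on when an interferon reaches them, and 35 of them were followed here in mouse dorsal root ganglia (DRG), the ganglia that hold the cell bodies of sensory neurons, after sciatic nerve transection. They were taken as a list of gene names, without a threshold on measured values, but the list was drawn up with earlier results of these data known. A probe was found for 34 of the 35 (none for Xaf1), and all 34 passed the filter on dim probes among the 20862 genes tested. Of the 34, 33 were well above background in the sample channel on all 9 arrays and Mx1 on 8. The samples were L3/L4 DRG of adult mice, 4 uninjured (labelled control) and 5 injured (labelled lesion), taken 3 days after transection of the sciatic nerve according to the labels and methods, while the results text of the study gives an earlier time. All 9 samples were labelled cre.neg and jun.wt. The labels identify no animals. The methods of the study name uninjured ganglia of the opposite side as controls for other assays after nerve crush, and do not say whether this holds for the arrays, so the tests measure the spread between these samples, which may be technical in part. Arrays are numbered 1 to 4 in the uninjured and 1 to 5 in the injured group, and these numbers only name them.

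Interferons signal through paired receptors and the JAK kinases to STAT factors, which with IRF9 form a complex after type I and III interferons, or pair with each other after interferon-γ. The complex binds the interferon-stimulated response element (ISRE) of promoters, and the pairs bind the γ-activated site (GAS). The genes that follow code for proteins that cut, trap or edit viral RNA and protein, for RNA sensors, for large GTPases that attack intracellular microbes, and for factors and enzymes that amplify or end the response. In the nervous system they are expressed in glia, neurons and immune cells alike.

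Each array carried the ganglion RNA in Cy5 beside a universal mouse reference RNA in Cy3, with no dye swap, so every level below is a log2 ratio of sample over reference, and levels are compared only within a gene. Median Cy5 intensity lay between 156 and 238, and 71.0% to 78.9% of spots were above background. The injury label was borne out by Atf3, an injury-induced transcription factor, which was 35.4-fold higher in the injured samples (log2 fold change 5.14, SE 0.07, limma adjusted p = 2.74e-11), and by Jun (1.77, SE 0.23, adjusted p = 3.36e-04). All 9 sensory neuron markers examined were above background on all 9 arrays. In whole ganglia, fewer cells of a type and less RNA per cell cannot be told apart.

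The promoters of the listed genes were read from RefSeq (GRCm38.p6), which gave 34 windows, from 250 bases before to 50 bases after a gene start, for 27 of the 35 genes. No window was given for Dhx58, Ifi27, Iigp1, Mx1, Mx2, Oas2, Parp14 and Usp18. The ISRE core was searched as GAAANNGAAA (TTTCNNTTTC on the opposite strand), where N is any base, and GAS as TTCNNNGAA, which reads the same on both strands. An ISRE core match lay in 15 of the 34 windows (44.1%), against 1131 of 32851 windows of all genes (3.44%). A GAS match lay in 9 of the 34 (26.5%), against 2726 of all windows (8.30%). The stretches shown are the 120 bases before the start of 3 genes that rose after injury (Igtp, Gbp2 and Oas1a) and 3 that did not pass the test (Isg15, Ifit1 and Irgm1), since all 6 hold the core close to the start. Capitals mark the ISRE core matches. The stretches are chr11:58199436-58199555 (plus strand) for Igtp, chr3:142620543-142620662 (plus strand) for Gbp2, chr5:120907526-120907645 (minus strand) for Oas1a, chr4:156200819-156200938 (minus strand) for Isg15, chr19:34640769-34640888 (plus strand) for Ifit1 and chr11:48871421-48871540 (minus strand) for Irgm1, each written 5′ to 3′ along its gene.
Igtp: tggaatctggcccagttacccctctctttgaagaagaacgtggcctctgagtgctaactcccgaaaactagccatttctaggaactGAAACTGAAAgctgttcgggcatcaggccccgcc
Gbp2: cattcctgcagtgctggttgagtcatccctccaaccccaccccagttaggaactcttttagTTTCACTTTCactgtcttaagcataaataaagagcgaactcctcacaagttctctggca
Oas1a: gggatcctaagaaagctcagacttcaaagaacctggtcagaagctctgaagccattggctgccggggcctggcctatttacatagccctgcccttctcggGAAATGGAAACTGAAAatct
Isg15: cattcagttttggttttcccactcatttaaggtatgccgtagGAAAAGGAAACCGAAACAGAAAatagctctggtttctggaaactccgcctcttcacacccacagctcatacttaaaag
Ifit1: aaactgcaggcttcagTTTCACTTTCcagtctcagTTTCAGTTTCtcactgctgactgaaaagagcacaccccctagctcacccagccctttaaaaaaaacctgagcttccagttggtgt
Irgm1: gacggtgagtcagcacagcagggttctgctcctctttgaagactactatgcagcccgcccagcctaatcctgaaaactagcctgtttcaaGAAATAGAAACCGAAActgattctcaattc

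In these stretches the core occurs 1 time for Igtp and Gbp2, 2 times for Oas1a, Ifit1 and Irgm1, and 3 times for Isg15. Successive matches share bases in Oas1a, Irgm1 and Isg15, but not in Ifit1. Among the 9 genes with a window that were called higher after injury (limma adjusted p under 0.05, passed in that direction by 11.4% of all genes tested), 4 held an ISRE core match, and among the 17 tested genes with a window that were not, 11 did. For GAS the counts were 5 of 9 and 4 of 17. Of all genes with a window, 3.99% held an ISRE core match and 9.55% a GAS match. The differences between these small counts were not tested. Igtp, Oas1a, Ifitm3 and Bst2 held both motifs, with shared bases in Ifitm3 and Bst2. A match says only that these letters are in the window.

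**Figure D1:**
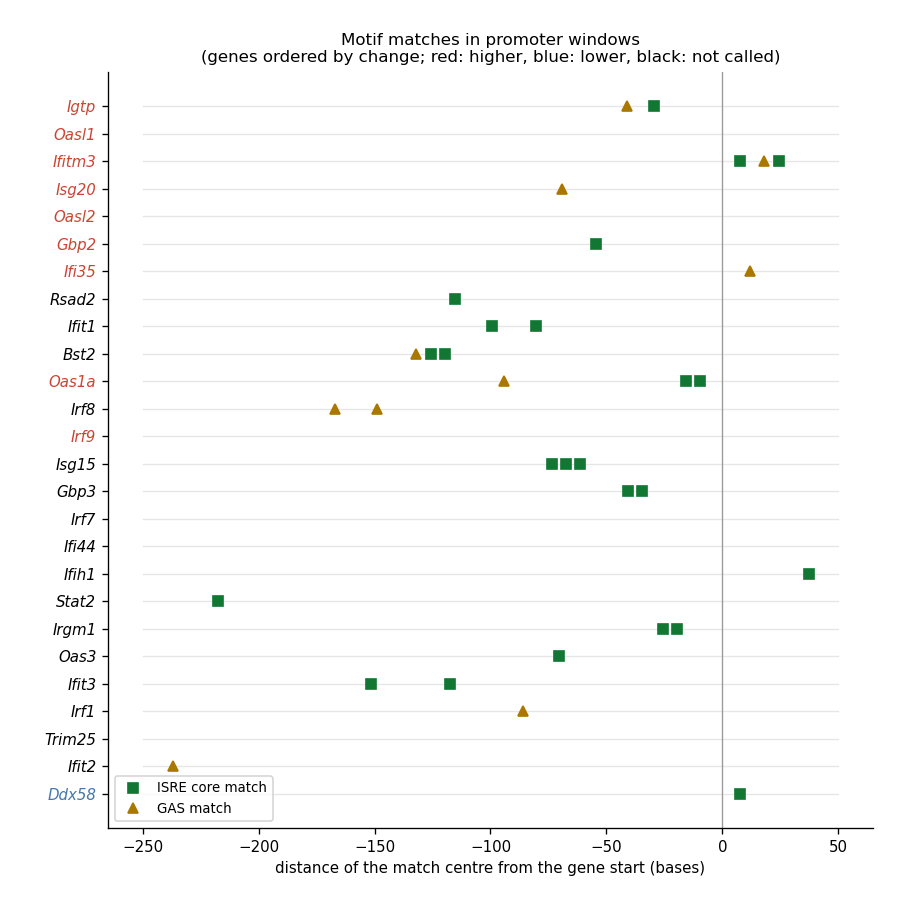
Motif matches in the promoter windows of the 26 tested genes with a window. The x axis is the distance of each match from the gene start in bases, squares are ISRE core and triangles GAS matches, and genes are ordered from the largest rise to the largest fall. Squares occur next to genes called higher (red), lower (blue) and not called (black).

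The first question was which interferon-induced genes differed between injured and uninjured DRG. In limma's test, adjusted over all genes, 13 of the 34 differed (25.4% of all genes tested did). Of these, 12 of the 34 were higher in injured DRG (35.3%, beside the 11.4% of all genes) and 1 was lower (2.94%, against 14% of all genes). The remaining 21 were not called. The 12 were Mx2, Igtp, Oasl1, Ifitm3, Isg20, Oasl2, Gbp2, Usp18, Ifi35, Parp14, Oas1a and Irf9, with rises between 1.23-fold and 1.84-fold, and the 1 that fell was Ddx58. In 11 of the 34, every injured array lay above every uninjured array (10.9% of all genes), and in none did every injured array lie below (13.1% of all genes). Over the 34 genes the median log2 fold change was 0.27, with a range of −0.24 to 0.88, and 30 lay above 0, while the median over all genes was 0.0013.

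**Figure D2:**
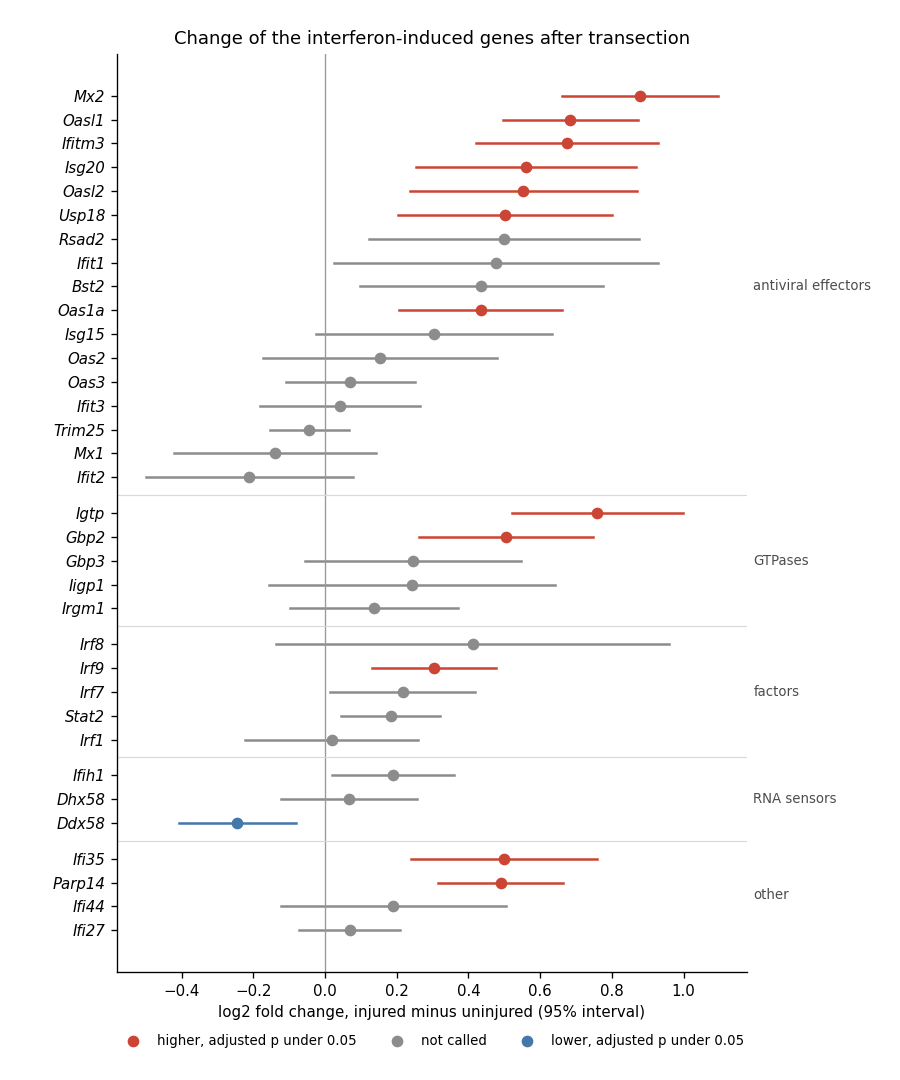
Log2 fold change of each of the 34 genes, injured minus uninjured, on the x axis with its 95% interval from limma, grouped by role. Red marks the 12 genes called higher, blue the 1 called lower (Ddx58) and grey the 21 not called, several of which have intervals that reach 0.5 and more.

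Among the genes grouped here as antiviral effectors, 7 of 17 rose (41.2%, beside 11.4% of all genes) and none fell (14% of all genes did). The group also holds genes of proteins that limit the response, such as Usp18 and Oasl1. Mx2, a dynamin-like GTPase of the antiviral Mx proteins whose gene is listed in the RefSeq table as a transcribed pseudogene, changed the most. Its log2 ratio was 0.34, 0.31, 0.35 and 0.17 on the uninjured arrays and 1.28, 1.19, 0.88, 1.41 and 1.09 on the injured arrays. The groups were far apart, with the lowest injured array more than the whole range of the uninjured ones above them. The log2 fold change was 0.88 (SE 0.10, 1.84-fold, adjusted p = 1.28e-04, two-sided exact permutation p = 0.00794, the smallest that 126 splits allow). Its probe lies at chr16:97944478-97944537 (mm7, the build of the array files). The paralog Mx1, on the same chromosome, was at −0.41, −0.54, −0.51 and −0.48 in uninjured and −0.46, −0.64, −0.66, −0.31 and −1.06 in injured DRG. For Mx1 the groups overlapped and the difference of −0.14 was not called (95% interval −0.42 to 0.14). The Mx1 difference was −0.03 without injured array 5, −0.57 with a background offset of 0 and −0.54 with Agilent's ratio.

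Of the 5 genes of the 2′-5′-oligoadenylate synthetase (OAS) family, 3 were higher (60%, beside 11.4% of all genes). Its members make the signal that activates RNase L, or bind nucleic acid without making it. Oasl1, a catalytically inactive relative that limits Irf7 translation, was at −2.17, −2.13, −2.12 and −1.97 on the uninjured arrays and −1.41, −1.43, −1.65, −1.22 and −1.36 on the injured ones. Every injured array lay above every uninjured array (log2 fold change 0.68, SE 0.08, adjusted p = 2.42e-04, exact p = 0.00794; probe at chr5:114158380-114158439, mm7). Its neighbour Oasl2 was at 0.63, 0.64, 0.62 and 0.57 uninjured and 1.30, 1.04, 0.66, 1.44 and 1.42 injured. Here injured array 3 lay only just above the uninjured arrays, and the other 4 injured arrays were clearly higher (0.55, SE 0.14, adjusted p = 0.0167, exact p = 0.0159). Oas1a, a synthetase, was at −2.03, −2.19, −1.91 and −2.02 uninjured and −1.60, −1.53, −1.93, −1.53 and −1.42 injured. It was the only one of the 12 whose groups overlapped, since injured array 3 lay among the uninjured arrays (0.43, SE 0.10, adjusted p = 0.0108, exact p = 0.0238, higher on 4 of 5 injured arrays than on any uninjured one). Oas2 and Oas3 changed by 0.15 (95% interval −0.17 to 0.48) and 0.07 (−0.11 to 0.25) and were not called.

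None of the 3 IFIT genes, which code for proteins that bind foreign RNA ends, passed the test. Ifit1 was at −0.72, −0.92, −0.81 and −1.0 uninjured and 0.25, −0.61, −0.53, −0.10 and −0.95 injured. It was high on injured arrays 1 and 4, but injured array 5 lay among the uninjured arrays (0.48, SE 0.20, adjusted p = 0.118), and without array 5 it was called (0.62, adjusted p = 0.0254), while without injured array 1 the difference was 0.32 and was not called. Ifit2 was at −0.11, −0.18, −0.18 and −0.28 uninjured and −0.06, −0.39, −0.26, −0.45 and −0.84 injured. Its lowest value was also that of injured array 5, and the difference of −0.21 was not called (adjusted p = 0.274) and was −0.10 without that array. A second Ifit2 probe gave −0.22. Ifit3 changed by 0.04 (95% interval −0.18 to 0.27), and transcripts of a near-identical neighbour, Ifit3b, may bind its probe.

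Isg15, a ubiquitin-like protein that is attached to other proteins, was at −2.34, −2.42, −1.78 and −2.31 uninjured and −1.62, −1.75, −2.10, −1.92 and −2.16 injured. The injured arrays lay above uninjured arrays 1, 2 and 4, while uninjured array 3 lay within the injured range. The difference of 0.30 was not called (95% interval −0.03 to 0.63, adjusted p = 0.169), and without uninjured array 3 it was (0.45, adjusted p = 0.0316). The array files place this probe on chromosome 17, and RefSeq places the gene on chromosome 4, so the value is uncertain. Usp18, the protease that removes ISG15 and damps the receptor, was at −3.27, −3.55, −3.35 and −3.60 uninjured and −2.69, −3.02, −3.24, −2.63 and −3.13 injured. All injured arrays were higher, array 3 by little (0.50, SE 0.14, adjusted p = 0.0201, exact p = 0.0159). Usp18 was no longer called without uninjured array 2 (0.47, adjusted p = 0.0554) or without uninjured array 4 (0.45, adjusted p = 0.0619). Trim25, a ligase for ISG15 and for the sensor RIG-I, changed by −0.04 (95% interval −0.15 to 0.07).

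Isg20, an exonuclease that degrades RNA, was at −2.71, −2.73, −2.71 and −2.79 uninjured and −2.31, −1.79, −2.62, −2.15 and −2.01 injured. The uninjured arrays were within 0.1 of each other and all injured arrays were above them (0.56, SE 0.14, adjusted p = 0.0134, exact p = 0.0159), and a second probe also gave 0.56. Rsad2 (viperin), an enzyme that makes a chain-terminating nucleotide, was at −0.80, −1.05, −1.11 and −1.0 uninjured and −0.75, 0.09, −0.88, −0.43 and −0.49 injured. Injured array 2 was highest and array 3 lay among the uninjured arrays. The difference of 0.50 missed the threshold (SE 0.17, adjusted p = 0.054), and its other probes gave 0.09 and 0.26. Rsad2 was called without injured array 1 (0.56, adjusted p = 0.0426) or without injured array 3 (0.60, adjusted p = 0.0237). Ifitm3, a membrane protein that blocks virus entry, was at −1.64, −1.85, −1.55 and −1.53 uninjured and −1.15, −0.89, −1.17, −0.99 and −0.63 injured. All injured arrays were above all uninjured ones by a wide margin (0.67, SE 0.11, adjusted p = 0.00176, exact p = 0.00794; probe at chr7:137426955-137427014, mm7). Bst2 (tetherin), which holds budding virus at the cell surface, was at −2.84, −3.19, −2.41 and −2.73 uninjured and −2.38, −2.08, −2.51, −2.21 and −2.59 injured. Uninjured array 3 lay within the injured range, and the difference of 0.44 was not called (SE 0.15, adjusted p = 0.0602). Bst2 was called without uninjured array 3 (0.56, adjusted p = 0.0202) or without injured array 5 (0.49, adjusted p = 0.0417).

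Of the 5 GTPases of the interferon-γ response, 2 rose (40%, beside 11.4% of all genes). Igtp (Irgm3), an immunity-related GTPase of the endoplasmic reticulum, was at 0.35, 0.38, 0.29 and −0.13 uninjured and 1.14, 0.92, 0.85, 1.01 and 0.98 injured. The injured arrays lay close together and above all uninjured arrays, of which array 4 was low (0.76, SE 0.11, adjusted p = 5.58e-04, exact p = 0.00794; probe at chr11:58288970-58289029, mm7). Gbp2, a guanylate-binding protein, was at −0.31, −0.65, −0.02 and −0.22 uninjured and 0.10, 0.31, 0.19, 0.18 and 0.24 injured. Its groups did not overlap, and the spread was larger among the uninjured arrays (0.50, SE 0.11, adjusted p = 0.00696, exact p = 0.00794). Gbp3, Iigp1 and Irgm1 changed by 0.25, 0.24 and 0.14, and their groups overlapped. For these 3 the 95% intervals ran from −0.05 to 0.55, −0.16 to 0.64 and −0.10 to 0.37. The Gbp3 probe is named Gbp4 in the array files and was assigned by its RefSeq identifier.

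Of the 5 transcription factors, 1 rose (20%, beside 11.4% of all genes). Irf9, the DNA-binding part of the type I complex, was at −0.15, −0.11, −0.05 and −0.19 uninjured and 0.34, 0.31, 0.03, 0.17 and 0.05 injured. All injured arrays were higher (0.30, SE 0.08, adjusted p = 0.0159, exact p = 0.0159), but a second probe changed by only 0.05. Its partner Stat2 was at 0.98, 1.20, 1.06 and 1.14 uninjured and 1.25, 1.19, 1.30, 1.31 and 1.35 injured. Injured array 2 lay just under the highest uninjured array, and the difference of 0.18 missed the threshold (SE 0.06, adjusted p = 0.0544), and without uninjured array 2 Stat2 was called (0.22, adjusted p = 0.039). Irf7, which amplifies interferon production, changed by 0.22 (95% interval 0.01 to 0.42, adjusted p = 0.113), and Irf1, an early factor of the interferon-γ response, by 0.02 (−0.22 to 0.26). Irf8, a factor known from myeloid cells, was at −1.19, −1.34, −0.98 and −0.62 uninjured and −1.18, −0.02, −0.94, −0.85 and −0.12 injured. It was high on injured arrays 2 and 5 and in the uninjured range on the other 3, and was not called (0.41, SE 0.25, adjusted p = 0.262, and 0.26 without injured array 2).

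None of the 3 cytosolic RNA sensors rose. Ddx58, which codes for RIG-I, the sensor of RNA with a triphosphate end, was at 0.20, 0.11, 0.36 and 0.38 uninjured and −0.00, 0.13, 0.04, 0.02 and −0.10 injured. The injured arrays were lower except array 2, which lay just above uninjured array 2 (−0.24, SE 0.07, adjusted p = 0.0344, exact p = 0.0238; probe at chr4:40348348-40348407, mm7). The other 3 Ddx58 probes changed by −0.11, −0.00 and −0.09 and were not called. Leaving out an array ended the call in 7 of 9 cases (each except uninjured array 2 and injured array 2), at values between −0.26 and −0.21. Ifih1, which codes for the long-RNA sensor MDA5, changed by 0.19 (95% interval 0.02 to 0.36, adjusted p = 0.0984), and Dhx58 (LGP2), a regulator of both, by 0.07 (−0.12 to 0.26).

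Of the other 4 tested genes, 2 rose (50%, beside 11.4% of all genes). Ifi35, a leucine-zipper protein, was at −0.27, −0.48, −0.16 and −0.15 uninjured and 0.27, 0.15, −0.11, 0.44 and 0.41 injured. All injured arrays were higher, array 3 by little (0.50, SE 0.12, adjusted p = 0.0104, exact p = 0.0159). Parp14, a mono-ADP-ribosyltransferase, was at −0.11, −0.19, −0.02 and −0.28 uninjured and 0.32, 0.42, 0.20, 0.26 and 0.50 injured. Its groups did not overlap (0.49, SE 0.08, adjusted p = 0.00122, exact p = 0.00794), while its other probes changed by 0.08 and 0.20 and were not called. Ifi44 and Ifi27 changed by 0.19 (95% interval −0.12 to 0.50) and 0.07 (−0.07 to 0.21) and were not called.

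**Figure D3:**
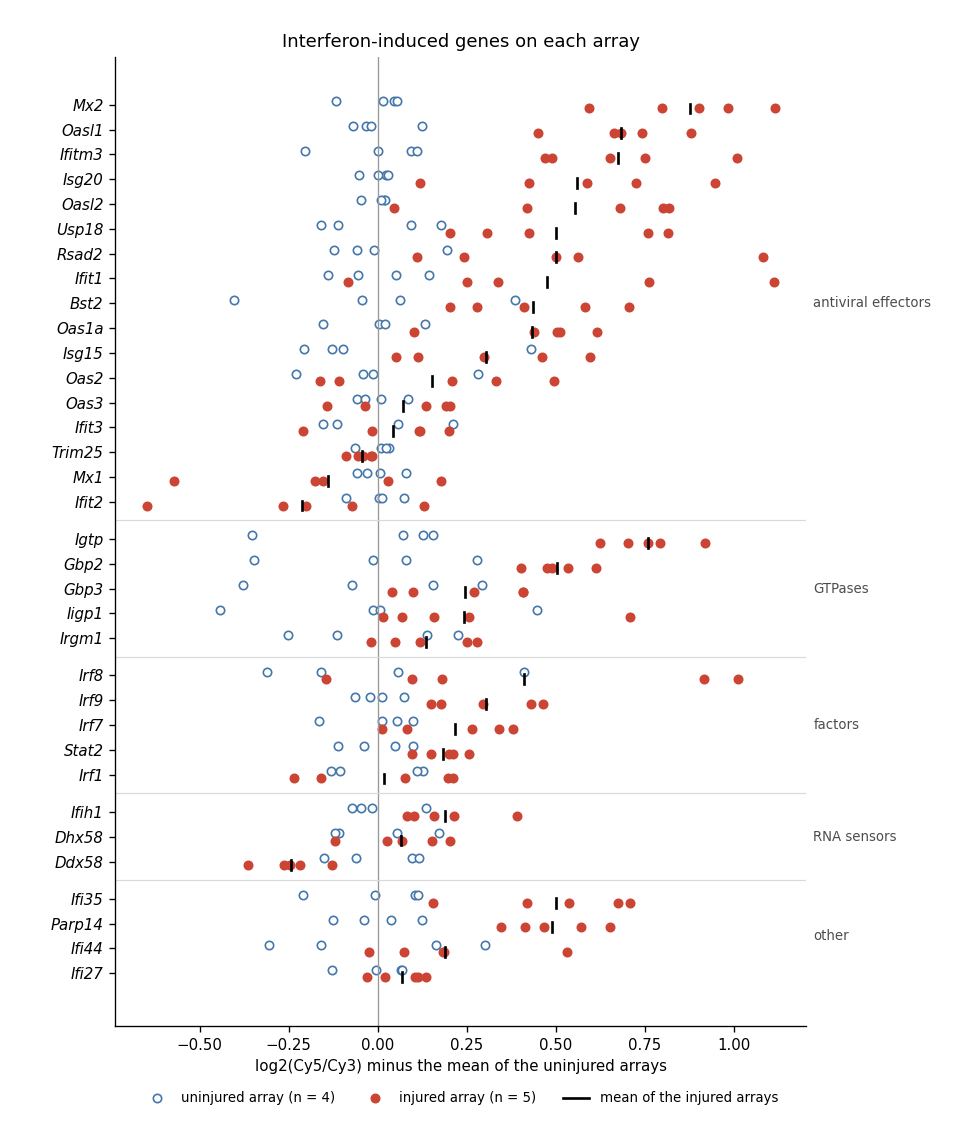
Log2 ratio of each of the 34 genes on each array, on the x axis relative to the mean of the uninjured arrays. Open circles are the 4 uninjured arrays, filled circles the 5 injured arrays and black bars the mean of the injured arrays, and the filled circles of Mx2, Oasl1, Ifitm3, Igtp, Gbp2 and Parp14 all lie right of their open circles.

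Array by array, the mean over the 34 genes, relative to the mean of the uninjured arrays, was 0.00, −0.12, 0.12 and −0.00 on the uninjured arrays and 0.32, 0.37, 0.13, 0.36 and 0.31 on the injured arrays. Injured array 3 stood just above uninjured array 3, and the other injured arrays were well above. Of the 34 genes, 20, 24, 13, 23 and 23 lay above every uninjured array on injured arrays 1 to 5. These counts were not made over all genes, so they only describe the arrays. Array 3 was the lowest of the injured arrays for 19 of the 34. Uninjured array 3 was the highest of its group for 19 of the 34 and uninjured array 2 the lowest for 19.

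Read from the array barcodes, the arrays lay on 3 slides, with uninjured arrays 2, 3 and 4 on 1 slide, uninjured array 1 with injured arrays 1, 2 and 5 on another, and injured arrays 3 and 4 on the last, so slide and injury overlap in large part. Within the slide that held both groups, which had 1 uninjured array, the difference over the 34 genes ran from −0.31 (Ifit2) to 0.85 (Mx2) with a median of 0.33. These arrays are among those that chose the calls, so the values are given as a description. When slide was added as a fixed term, which leaves that contrast alone, 2 of the 34 were called higher. They were Mx2 (adjusted p = 0.0382) and Oasl1 (adjusted p = 0.0315), both among the 12. Of all 20862 genes, 1177 were called in this fit, 629 of them higher.

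Interferons and their signalling partners were examined on wider lists. Of 15 interferon genes, 12 had a probe, 5 passed the filter and none of these was called, with changes of −0.05 to 0.01. The probes of Ifnb1 and Ifng, the founding type I interferon and interferon-γ, were too dim to be tested. Of 15 receptors, kinases, factors and inhibitors, 3 rose (20%, beside 11.4% of all genes) and none fell (14% of all genes did). They were Socs3 (0.72, adjusted p = 1.19e-04), an inhibitor of cytokine signalling, Jak2 (0.42, adjusted p = 0.00334), a kinase of the interferon-γ receptor, and Ptpn2 (0.35, adjusted p = 0.00752), a phosphatase of JAK and STAT proteins. Jak2 was at 0.20 (adjusted p = 0.03) when its probes were averaged, and was not called with median centring (0.35) or with slide as a fixed term (0.38). The receptor genes Ifnar1, Ifnar2, Ifngr1 and Ifngr2 changed by 0.08, 0.00, −0.21 and −0.09, and the kinases Jak1 and Tyk2 by −0.16 and 0.12, and none of these was called. Ifngr1 was called without uninjured array 2 (−0.30, adjusted p = 0.0351) and with array weights (−0.27, adjusted p = 0.0305), and Jak1 in the Cy5 channel alone (−0.28, adjusted p = 0.0434).

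Of 14 further sensors and adaptors, 4 rose (28.6%, beside 11.4% of all genes) and none fell (14% of all genes did). Sting1, the adaptor of cytosolic DNA sensing, was at −2.34, −2.45, −2.28 and −2.18 uninjured and −0.84, −0.83, −1.06, −0.63 and −0.02 injured. All injured arrays were far above all uninjured ones (1.64, SE 0.18, adjusted p = 1.03e-04). The others were Ticam1 (0.78, adjusted p = 1.66e-04) and Myd88 (0.67, adjusted p = 4.57e-04), adaptors of Toll-like receptors, and Zbp1 (0.43, adjusted p = 0.0276), a sensor of left-handed nucleic acid, whose call was lost (0.37 to 0.43) on leaving out any of uninjured arrays 1, 2 and 4 or injured arrays 2, 4 and 5. Irf3, the factor that STING activates, changed by 0.14 and was not called.

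Of 46 other tested interferon-induced genes (1 of them also on the list of receptors, kinases and factors), 8 rose (17.4%, beside 11.4% of all genes) and 2 fell (4.35%, beside 14%), with a median of 0.15. The largest rises were those of Plac8 (1.36, adjusted p = 0.00986), Trex1 (0.99, adjusted p = 0.0018), an exonuclease that clears cytosolic DNA, Ifitm1 (0.71, adjusted p = 0.017), Slfn2 (0.66, adjusted p = 0.00787) and Trim30a (0.55, adjusted p = 0.0197). The calls of Ifitm1 (0.64) and Trim30a (0.54) were lost without uninjured array 1, and that of Trim30a also without uninjured array 2 (0.47). Those that fell were Cmpk2, a mitochondrial nucleotide kinase, and Tdrd7 (−0.52, adjusted p = 3.87e-04), a Tudor-domain protein. Cmpk2 was at 2.0, 1.87, 2.24 and 2.12 uninjured and 1.38, 1.02, 1.11, 0.86 and 0.33 injured. All injured arrays were below all uninjured ones (−1.12, SE 0.18, adjusted p = 0.00117). Eif2ak2, which codes for the kinase PKR, changed by 0.16 and was not called.

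Markers of other cells moved on some of the same arrays. The mean over 12 macrophage markers, relative to the uninjured mean, was −0.14, −0.40, 0.19 and 0.34 on the uninjured arrays and 0.12, 1.07, 0.39, 0.50 and 1.00 on the injured ones. All 12 lay above 0, with a median of 0.69. Of the 12, 4 rose (33.3%, beside 11.4% of all genes), from Aif1 (0.90, adjusted p = 0.00763) to Itgam (0.50, adjusted p = 0.0335). Itgam lost its call without uninjured array 1, 2 or 3 or injured array 3 or 4. It was at 1.22 with a background offset of 0 and 1.53 with Agilent's ratio. Ptprc (0.82, adjusted p = 0.0846) and Cd68 (0.31, adjusted p = 0.0691) were not called, except without injured array 1 (0.37 for Cd68) or with slide as a random block. Injured array 1 lay within the uninjured range of the macrophage mean. On it the mean over the 34 interferon-induced genes was 0.32, against 0.37, 0.13, 0.36 and 0.31 on injured arrays 2 to 5. The median over the 34 was 0.22, against 0.34, 0.11, 0.34 and 0.27. Arrays 2 and 5, with the highest macrophage means, were also those on which Irf8 was high. None of the 7 T or NK cell markers (median 0.13, Cd3e 0.26), 5 neutrophil markers (median 1.48) or 4 red blood cell markers (median 0.71, Hbb-bt 0.27) was called. Probes of Gzma and Gzmb were too dim to be tested, and none was found for Ly6g. The neutrophil mean was between −0.47 and 0.61 on the uninjured and 0.65, 3.24, 0.47, 1.73 and 0.77 on the injured arrays, and the red blood cell mean between −0.24 and 0.31 and −0.06, 1.57, 0.15, 0.68 and 1.11. The part of these cells in the changes was not tested.

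Of the markers of resident cells, 1 of 6 endothelial genes rose (16.7%, beside 11.4% of all genes). It was Tek (0.47, adjusted p = 0.0252), whose call was lost without uninjured array 1 or 2 or injured array 2 or 4. Of 9 sensory neuron genes, 1 fell (11.1%, beside 14% of all genes), Isl1 (−0.49, adjusted p = 2.32e-04). Of 4 satellite glial genes, Glul rose (0.78, adjusted p = 1.33e-04) and Cadm2 fell (−0.48, adjusted p = 0.00319), which is 25% in each direction. None of the 5 Schwann cell and 5 fibroblast genes was called, with medians of 0.26 and 0.30. The 5 muscle genes were not called either, but their mean was 1.81 and 3.31 on injured arrays 2 and 4, against −0.11 to 0.31 on the other 7 arrays. Without these 2 arrays (chosen after the data were seen), 5 of the 34 genes were called higher, beside 1369 of all 20862 genes. They were Mx2, Oasl1, Ifitm3, Igtp and Parp14, and Ddx58 was not called. The median over the 34 genes was 0.26, and 30 of them lay above 0. The part of muscle in the changes was not tested.

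**Figure D4:**
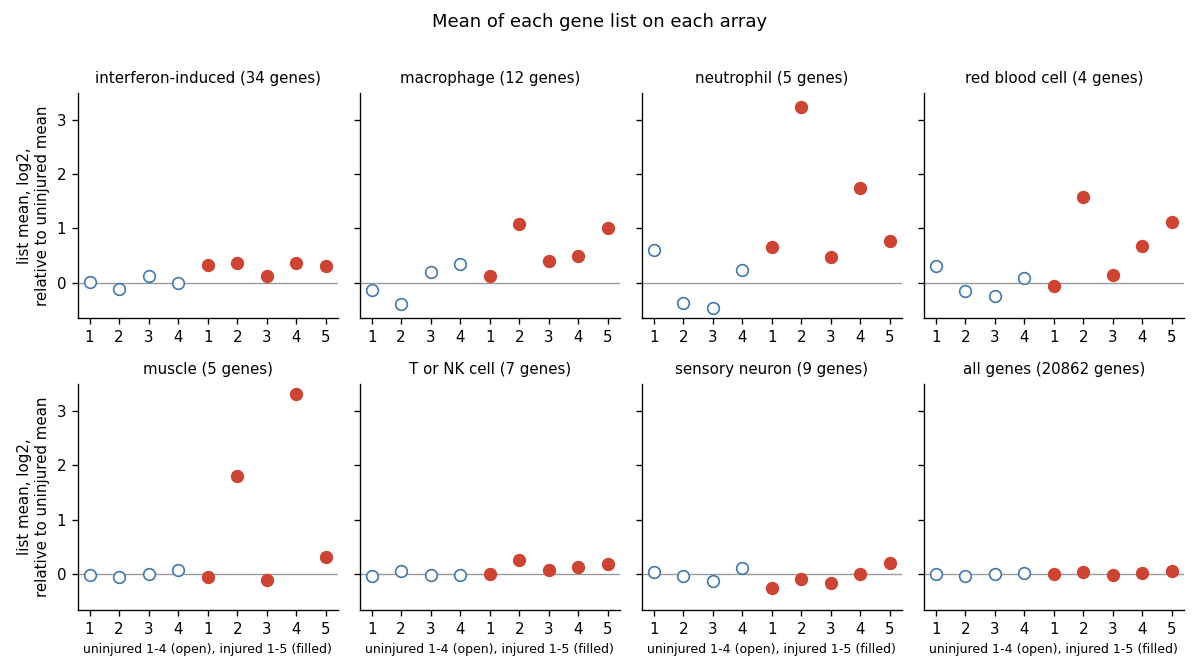
Mean log2 ratio of each gene list on each array, relative to the mean of the uninjured arrays. Open circles are uninjured arrays 1 to 4 and filled circles injured arrays 1 to 5. The mean of the 34 interferon-induced genes stays between −0.12 and 0.37, and that of the T or NK cell list between −0.03 and 0.25. The macrophage, neutrophil, red blood cell and muscle means, over 4 to 12 genes each, spread more widely.

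In the Cy3 reference channel alone, which holds the same RNA on every array, limma called none of the 34 genes (1 at an unadjusted p under 0.05, and 8 without uninjured array 1), and 0.158% of all genes.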

How the data were processed

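Each of the 9 samples was hybridised to an Agilent mouse array (design 014868). The authors' deposited files hold, per the file headers, Cy5 and Cy3 intensity from Feature Extraction 10.5.1.1 and a log10 ratio of Cy5 over Cy3. The authors' log2 ratios, made with limma per the labels, were deposited as a series table and serve as an alternative. Intensities were processed with limma 3.58.1 in R 4.3.3, with the data.table package (1.17.8), and figures with Python 3.11.15 and matplotlib 3.10.9. Background was corrected by normexp (offset 50), fitted without spots of non-uniform local background (20 on injured array 2), followed by loess within arrays. Spots with non-uniform flags were left out and repeated spots averaged. Probes had to be well above background in Cy5 on 4 arrays or more, and the brightest was kept per gene. These ratios had slopes of 1.00 to 1.01 against the authors' values.

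Names came from accessions, then symbols. Files and RefSeq differ for Irf9 (Isgf3g), Irgm1 (Irgm), Dhx58 (D11Lgp2e), Ifi27 (D12Ertd647e) and Gbp3 (Gbp4). Groups were compared with limma, Benjamini-Hochberg adjusted over 20862 genes at 0.05, with two-sided exact permutation tests over 126 splits for single genes. Members and lists were chosen with earlier results of these data known. Named were all members, fixed signalling genes, and of wider lists up to 5 called genes per direction, of marker lists the ends among called genes. The number of arrays limits precision. Alternatives varied background, normalization, filter, probe choice, slide, weights and arrays. The procedure was tested on simulated data. Some genes of the wider lists are not reported here.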

Additional observations from a re-analysis of the deposited data

Results flagged for a closer look

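Among 70 groups of values over the listed genes and their mean, 2 held an array far from the others of its group, where chance flags about 1 in 20 groups. For Igtp, uninjured array 4 had a log2 ratio of −0.13, while the nearest uninjured array was at 0.29. For the mean over the 34 genes, relative to the uninjured mean, injured array 3 was at 0.13 and the nearest injured array at 0.31.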

How the results depend on the processing

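Mx2 and Oasl1 were called under all 24 alternatives with a test, and Igtp, Ifitm3 and Parp14 under 23, all but slide as a fixed term. The other genes called higher passed under 17 (Usp18) or 19 (Irf9) to 22 (Oasl2, Isg20 and Ifi35). With a gene's probes averaged, Parp14 was at 0.26 and Irf9 at 0.18. Leaving out each array gave 11 to 14 of the 34 genes called higher, 0 to 1 lower, 13 to 23 of 79 wider pathway genes (17 with all arrays), 5 (without uninjured array 2 or injured array 4) to 16 (without injured array 1) of 62 markers (8) and 4020 to 5434 of all genes (5300). With slide as a fixed term the counts were 2 higher, 0 lower, 5 pathway genes, 3 markers and 1177 genes, for which 1 gene could not be fitted. Slide as a random block (correlation within slides −0.21) gave 17 members higher, 33 pathway genes, 27 markers and 7401 genes. Median centring gave 2655 genes, 8 members higher, 0 lower and 11 pathway genes. The Cy5 channel alone gave 0 members lower and 14 markers. Array weights gave 15 members higher, 13 markers and 6382 genes. With the authors' values or the average of a gene's probes, 0 members were lower. Without injured arrays 2 and 4, an alternative chosen after the data were seen, 5 members were higher and 0 lower, with 11 pathway genes, 5 markers and 3008 genes. The causes were not tested.

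No called gene changed direction. Genes near 0 did. Ifnar2 was −0.0032 with background fitted on all spots, −0.0017 without correction, −0.0055 with offset 0, −0.0030 with Agilent's ratio, −0.092 with median centring, −0.016 with the authors' values, −0.014 with Cy5 alone, −0.027 with slide as a random block, −0.026 without injured arrays 2 and 4, and −0.11 to 0.16 without single arrays. Irf1 was −0.0015 with offset 0, −0.087 with median centring, −0.015 with Cy5 alone, −0.037 with array weights and −0.030 to 0.081 without single arrays. Ifit3 was −0.045 with median centring, −0.021 with slide as a fixed term, −0.0029 with probes averaged and −0.0087 to 0.11 without single arrays. Ifi27 was −0.071 with median centring and −0.011 with Cy5 alone, Ifnar1 −0.0076 with median centring, Ifi44 −0.086 with slide as a fixed term, Trim25 0.044 with probes averaged, and Eif2ak2 −0.024 to 0.28 without single arrays.

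No paired analysis was possible because no label ties arrays to an animal, and replicate numbers only name arrays. Small changes of the genes not called were not detectable with 4 and 5 arrays at this spread, and probes not well above background were not tested.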
